A study of Mus musculus with 12 samples.

Results

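The immunoglobulin gene segments are the constant, variable (V) and joining (J) pieces from which B cells and plasma cells build antibody genes. They were taken as every gene of the deposited table that is annotated as a C_region, V_segment, D_segment or J_segment and whose symbol begins with Igh, Igk or Igl, which gave 190 of 19547 genes. Of these, 98 lie at the heavy chain locus (7 constant, 87 V and 4 J segments, chromosome 12, 113256204 to 116000321), 83 at the kappa locus (1 constant, 77 V and 5 J segments, chromosome 6, 67555636 to 70726754) and 9 at the lambda locus (3 constant, 3 V and 3 J segments, chromosome 16, 19061752 to 19260844), all on GRCm38.p6, the assembly of mm10. No D segment met the rule, and the IgE constant region was not analysed here.

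The series measured RNA in mouse fat grafts by sequencing. All 12 libraries come from adipose tissue of wild type C57BL/6 mice aged 16 weeks, taken after 8 weeks of grafting, 4 in each of 3 groups. The control group is fat grafted alone, the CAL group (cell-assisted lipotransfer) is fat with added ASC, as stem cells taken from adipose tissue are commonly called, and in the CAL_Dll4i group Dll4, a Notch ligand, was inhibited as well. How Dll4 was inhibited, which animals gave the fat and whether each sample came from its own animal is not in the labels, so a p-value here measures the spread between these samples only, which may be technical.

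An antibody is made of heavy and light chains. A developing B cell joins one V segment to a J segment (with a D segment between them in the heavy chain), and all its descendants keep that choice, so the V segments in a tissue's RNA reflect which B cell clones are transcribing most. The heavy constant region sets the isotype: naive B cells transcribe Ighm and Ighd, and class-switched cells transcribe one of the Ighg genes or Igha. Plasma cells transcribe their chosen segments far more strongly than B cells do.

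The J segments are short, and which of them was joined to which V segment was not analysed here. The J segments of the heavy and kappa loci, from GENCODE vM21 transcripts, are printed because their use differed between libraries. Capitals mark the first TGGGG (heavy) or TTCGG (kappa) on the coding strand, which begins the conserved motif that follows the antigen-binding loop. TGGGG is in 4 of 4 heavy J segments and TTCGG in 4 of 5 kappa J segments. The letters TTCGG are not in Igkj3, which in mice is held to be non-functional.
Ighj1: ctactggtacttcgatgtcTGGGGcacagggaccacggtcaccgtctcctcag
Ighj2: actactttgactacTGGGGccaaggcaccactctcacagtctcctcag
Ighj3: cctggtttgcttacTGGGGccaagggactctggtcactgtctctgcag
Ighj4: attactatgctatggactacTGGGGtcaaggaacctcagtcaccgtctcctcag
Igkj1: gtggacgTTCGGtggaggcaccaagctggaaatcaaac
Igkj2: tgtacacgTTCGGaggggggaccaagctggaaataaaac
Igkj3: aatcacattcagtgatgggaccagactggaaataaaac
Igkj4: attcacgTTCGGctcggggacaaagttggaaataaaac
Igkj5: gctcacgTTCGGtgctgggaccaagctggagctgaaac

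In the 12 libraries, 9 different heavy V segments came first. A window of 90 bases from each is printed, from base 81 to base 170 of the last 294 bases of its transcript, the stretch in which the other 8 segments, summed, differ most from Ighv1-26. Capitals mark bases that differ from Ighv1-26 at the same position, 9 of them in Ighv1-39 and 27 in Ighv1-52.
Ighv1-26: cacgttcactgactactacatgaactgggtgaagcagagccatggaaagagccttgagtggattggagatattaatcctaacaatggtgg
Ighv1-76: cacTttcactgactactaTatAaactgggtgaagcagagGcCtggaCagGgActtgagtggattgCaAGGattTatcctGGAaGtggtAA
Ighv1-55: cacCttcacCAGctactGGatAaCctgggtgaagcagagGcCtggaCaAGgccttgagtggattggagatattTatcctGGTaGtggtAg
Ighv1-52: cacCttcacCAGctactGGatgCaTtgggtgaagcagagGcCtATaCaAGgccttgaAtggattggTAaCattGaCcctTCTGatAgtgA
Ighv1-72: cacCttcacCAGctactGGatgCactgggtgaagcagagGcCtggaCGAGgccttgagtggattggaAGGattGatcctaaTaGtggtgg
Ighv1-53: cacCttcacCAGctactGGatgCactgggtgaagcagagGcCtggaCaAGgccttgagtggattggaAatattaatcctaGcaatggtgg
Ighv1-39: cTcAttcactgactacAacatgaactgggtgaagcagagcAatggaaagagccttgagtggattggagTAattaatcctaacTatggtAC
Ighv1-50: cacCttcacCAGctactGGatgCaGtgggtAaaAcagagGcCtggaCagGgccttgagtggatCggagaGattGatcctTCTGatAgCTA
Ighv14-4: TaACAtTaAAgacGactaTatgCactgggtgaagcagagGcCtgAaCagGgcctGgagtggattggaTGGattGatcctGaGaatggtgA
Over all 294 bases, identity to Ighv1-26 ran from 77.9% (Ighv14-4) to 92.5% (Ighv1-39). Ighv1-72 shares 99.3% of these bases with Ighv1-62-3, and at least 12 of 84 heavy V segments have a neighbour at 98% or more. How reads were shared between such copies is uncertain. Bases were compared position by position without gaps, which can miss likeness between segments that line up only with gaps. Ighv2-3, for example, had at most 39.1% with any other segment.

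Immunoglobulin segments took between 0.313% and 1.13% of all counts. In control replicates 1 to 4 the percentage was 0.572, 0.481, 0.313 and 1.02. In CAL it was 0.807, 0.976, 0.835 and 0.545, and in CAL_Dll4i 0.761, 0.335, 1.13 and 0.691. The groups overlap widely: the second highest of the 12 values is a control and the second lowest is a CAL_Dll4i library. Summed over all segments, TMM-normalised CPM, counts scaled to library size, stood at 5860 ± 2929 in control, 7871 ± 1857 in CAL and 7456 ± 3304 in CAL_Dll4i (n = 4 per group, mean ± SD). In bulk tissue, fewer cells of a type and less RNA per cell cannot be told apart.

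**Figure D1:**
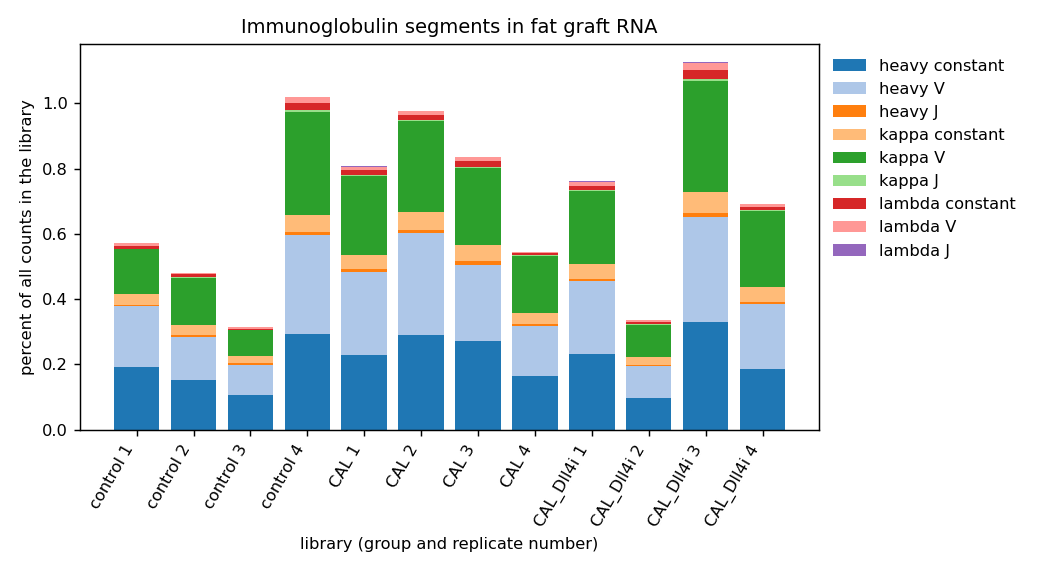
Percent of each library's counts (y axis) in 9 classes of immunoglobulin segment, stacked, for the 12 libraries (x axis). The totals run from 0.313% in control replicate 3 to 1.13% in CAL_Dll4i replicate 3, and the 3 groups overlap.

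Markers of the cells that make antibodies were present in every library. The summed CPM of 16 B cell genes ran from 207 to 524 in control, 302 to 572 in CAL and 292 to 729 in CAL_Dll4i, and that of 15 plasma cell genes from 635 to 835, 689 to 907 and 626 to 949. No gene of these lists was at 0. In control, the B cell genes Cd37, Cd22 and Cd72 stood at 95.4 ± 3.21, 59.6 ± 14.9 and 38.9 ± 1.78 CPM, against 9.79 ± 8.84 for Ms4a1 (mean ± SD). The plasma cell genes Jchain, Slamf7 and Txndc5 stood at 187 ± 49.4, 167 ± 14.6 and 101 ± 12.3 CPM, against 5.60 ± 4.10 for Mzb1. The sums thus rest in large part on a few abundant genes, some of which varied little. All 16 B cell genes had a higher estimate in CAL than in control (median log2 fold change 0.55) and 0 passed edgeR's quasi-likelihood test, with 0 at an unadjusted p under 0.05. Of the 15 plasma cell genes, 12 were higher (median 0.16) and 0 passed, with 0 at an unadjusted p under 0.05. For both lists DESeq2 and voom with sample weights also called 0 in this comparison, with 0 and 0 B cell genes and 2 and 1 plasma cell genes at an unadjusted p under 0.05. Their part in the immunoglobulin values was not tested. Total counts per library ran from 55883051 to 70804141. Skeletal muscle RNA was high in CAL replicates 1 and 2 and CAL_Dll4i replicate 3 (summed CPM of 4 muscle genes 151, 348 and 578, against 1.80 to 14.5 elsewhere), and CAL replicate 3 held almost no Ccl21a, a chemokine of lymphatic and lymph node stroma (0.07 CPM, against 4.22 to 51.3 elsewhere).

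Among constant regions, compared per length in deposited TPM, transcript abundance scaled for length and library, Igkc, the only kappa constant region, was the most abundant. Its median over 12 libraries was 3217 TPM (range 1719 to 4595), and it varied 2.67-fold between extreme libraries. Igha (IgA) followed at a median of 1021 TPM, Ighg2c (an IgG2 that C57BL/6 mice carry in place of Ighg2a) at 883, Ighm (IgM) at 806 and Ighg2b at 559. Ighg1 had a median of 198 TPM, Ighd (IgD) 57.7 and Ighg3 31.6. This order depends on the lengths behind the deposited values, which differ between genes. They were 1257 to 1307 bases for Ighg2c, 1532 to 1594 for Igha and 1861 to 1935 for Ighm. Whether these lengths match the transcripts in the grafts was not tested.

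The rarer heavy constant regions varied most between libraries. Ighg3 ran from 1.89 TPM in control replicate 3 to 231 in control replicate 4, a 122-fold range inside 1 group. Ighg1 ran from 48.7 TPM (CAL_Dll4i replicate 4) to 1191 (CAL replicate 2), or 24.5-fold, and Ighd from 8.73 (control replicate 3) to 166 (CAL_Dll4i replicate 3), or 19.0-fold. Ighg2c varied 9.86-fold, Ighm 4.41-fold, Ighg2b 3.97-fold and Igha 3.29-fold.

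Isotype use was given as each gene's share of the summed heavy constant TPM. The 4 IgG genes together took 50.1 ± 12.8% in control, 46.5 ± 13.2% in CAL and 38.6 ± 9.34% in CAL_Dll4i (n = 4 per group, mean ± SD). IgA took 28.0 ± 9.23%, 29.8 ± 11.6% and 30.3 ± 5.61%, and IgM 20.8 ± 7.58%, 21.8 ± 13.7% and 28.8 ± 4.69%. IgG was thus the largest class by mean in each group, and single libraries departed from it.

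Isotype profiles differed between libraries of 1 group. IgM was 13.7, 30.7, 22.6 and 16.2% in control replicates 1 to 4, 16.0, 9.85, 41.4 and 19.7% in CAL, and 27.2, 35.8, 26.1 and 26.1% in CAL_Dll4i. CAL held both the lowest and the highest IgM share of all 12 libraries. IgA was 22.7, 24.5, 41.8 and 23.0% in control, 46.6, 25.8, 19.97 and 26.9% in CAL, and 33.7, 34.97, 22.5 and 30.1% in CAL_Dll4i. It exceeded 40% only in control replicate 3 and CAL replicate 1. Ighg1 took 21.6% in CAL replicate 2 and 16.8% in CAL replicate 4, against 4.42% in each of CAL replicates 1 and 3 and 2.12 to 10.5% in control. Ighg2c was highest in control replicates 1 and 4, at 38.3 and 34.03%, and lowest in CAL_Dll4i replicate 2, at 10.8%.

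**Figure D2:**
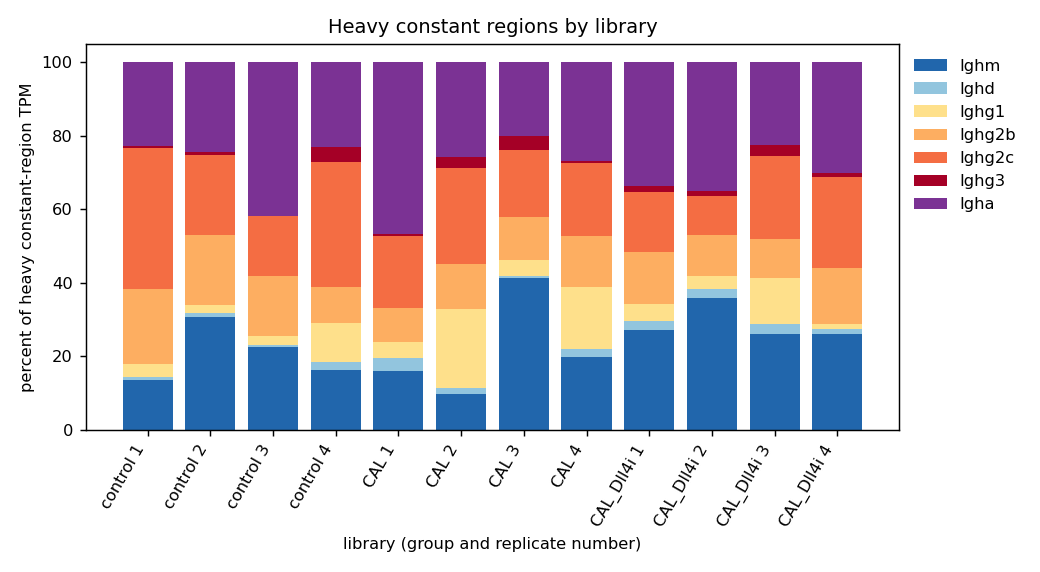
Share of heavy constant-region TPM (y axis, percent) taken by each of 7 constant regions in the 12 libraries (x axis). IgM (Ighm) runs from 9.85% in CAL replicate 2 to 41.4% in CAL replicate 3, and IgA (Igha) from 19.97 to 46.6%, both extremes of each lying inside the CAL group.

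No isotype or light chain share differed between groups beyond the spread of the libraries. The smallest unadjusted p of 12 tests (4 shares in 3 comparisons, two-sided exact permutation test over 70 arrangements) was 0.143, for IgM in CAL_Dll4i against control, a difference of 8.01 percentage points. Adjusted p over the 12 tests ran from 0.971 to 1. The smallest p that 4 against 4 libraries can give is 0.0286, and these p-values do not show that the groups are alike.

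Ighd followed Ms4a1 (CD20), a surface protein of B cells that plasma cells largely lack. Ighd stood at 13.0, 13.3, 3.60 and 55.2 CPM in control, 64.1, 33.6, 10.1 and 28.8 in CAL and 48.0, 19.0, 72.9 and 20.7 in CAL_Dll4i. Ms4a1 stood at 7.32, 7.74, 1.73 and 22.4 CPM in control, 29.7, 14.01, 6.75 and 12.8 in CAL and 19.8, 8.83, 48.2 and 12.9 in CAL_Dll4i. Both genes ordered the 12 libraries alike, except that CAL replicate 4 and CAL_Dll4i replicate 4 changed places. On the log2 scale Pearson's r was 0.978 and Spearman's rho 0.993, each with permutation p = 1e-05, the smallest that 100000 permutations can give (adjusted over the 50 relations computed to 0.0001 and 0.000167). Without control replicate 3 and CAL_Dll4i replicate 3, the libraries farthest from the median Ighd, r was 0.979, and for deviations from group means it was 0.973.

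Igkc and Igha were compared with Jchain and Ms4a1. Jchain, the joining chain of secreted IgM and IgA, gave r = 0.932 with Igkc and 0.889 with Igha (rho 0.839 and 0.853, permutation p for r 7e-05 and 0.0001, adjusted 0.000437 and 0.00055, and for rho 0.00108 and 0.00089, adjusted 0.00491 and 0.00445), and r without the 2 farthest libraries was 0.863 and 0.849. With Ms4a1 they gave r = 0.722 and 0.683 (rho 0.615 and 0.720, permutation p for r 0.00585 and 0.0126, adjusted 0.0132 and 0.0212, and for rho 0.0367 and 0.0111, adjusted 0.055 and 0.0241), and r without those libraries was 0.605 and 0.690. The other constant regions went both ways. Jchain gave the higher r for Ighm (0.623, against 0.429 with Ms4a1), Ighg2b, Ighg2c, Ighg3 and Iglc1. Ms4a1 gave the higher r for Ighd, Iglc3 (0.866, against 0.753 with Jchain), Iglc2 (0.775 against 0.716) and Ighg1 (0.617 against 0.614). Whether these r values differ from each other was not tested. All share library, depth and tissue composition.

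Over all genes outside the segments, the 5 whose log2 CPM was most like that of the summed constant regions over 12 libraries were Cacna1h (a T-type calcium channel subunit, r = 0.963), Mzb1 (a chaperone of B lineage cells, 0.958), Derl3 (endoplasmic reticulum degradation, 0.953), Eaf2 (transcription elongation, 0.952) and Fut1 (a fucosyltransferase, 0.950). These were chosen for their likeness and carry no test. Spearman's rho for them was 0.888 to 0.937. Among genes named for their role, r was 0.926 for Jchain, 0.760 for Cd79a, 0.712 for Ms4a1 and 0.681 for the T cell gene Cd3e. Without the 2 farthest libraries, CAL_Dll4i replicate 2 and control replicate 3, it was 0.852, 0.657, 0.571 and 0.0899.

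**Figure D3:**
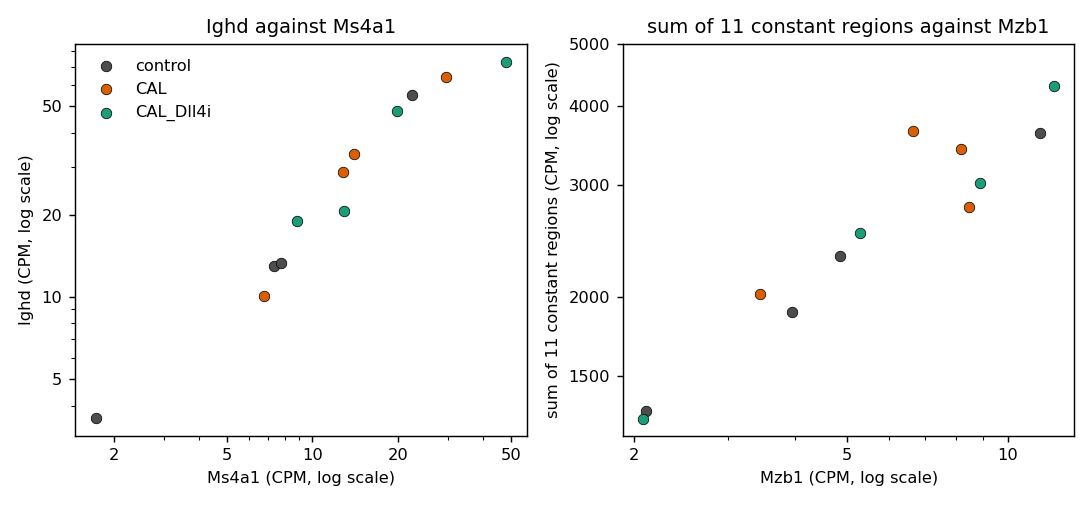
Left, Ighd against Ms4a1; right, the sum of 11 constant regions against Mzb1, both in CPM on log axes, 1 point per library coloured by group. Ighd has r = 0.978 with Ms4a1 over the 12 libraries, and the summed constant regions have r = 0.958 with Mzb1.

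Heavy and light chain RNA stood near a ratio of 1 in TPM. That level depends on the lengths behind the TPM, 399 to 415 bases for Igkc and 1861 to 1935 for Ighm. In counts without length scaling, heavy constant regions took a mean of 0.186% of the library in control, kappa 0.0354% and lambda 0.0113%. Summed heavy constant TPM divided by summed light constant TPM was 1.20, 0.979, 0.964 and 1.01 in control, 1.03, 1.06, 1.02 and 1.07 in CAL and 0.967, 0.802, 0.907 and 0.891 in CAL_Dll4i. All 4 CAL_Dll4i values lay below all 4 CAL values, and they overlapped control, in which replicate 3 stood at 0.964. This ratio was singled out after its values were seen and carries no test.

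Kappa exceeded lambda in every library. The ratio of kappa to lambda constant TPM was 3.52, 3.63, 5.48 and 2.31 in control, 2.97, 3.65, 2.88 and 5.25 in CAL and 3.16, 3.10, 2.20 and 4.06 in CAL_Dll4i. The highest ratio was in control replicate 3 and the lowest in CAL_Dll4i replicate 3, with the groups overlapping. Lambda made up 22.3 ± 6.05%, 22.1 ± 4.49% and 24.8 ± 4.74% of light constant TPM (mean ± SD, n = 4 each).

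The lambda locus holds few segments in mice, arranged in clusters in which Iglv2 and Iglv3 lie upstream of Iglj2 and Iglc2, while Iglv1 joins to Iglj1 with Iglc1 or to Iglj3 with Iglc3. Iglc2 took 22.5, 34.8, 43.2 and 24.7% of lambda constant TPM in control, 33.3, 66.9, 20.2 and 41.8% in CAL and 32.0, 46.1, 62.0 and 34.3% in CAL_Dll4i. CAL replicate 2 and CAL_Dll4i replicate 3 were the highest. Iglv2 took 45.2% (95% Clopper-Pearson interval 44.0 to 46.4) of lambda V counts in CAL replicate 2 and 50.2% (49.4 to 51.0) in CAL_Dll4i replicate 3, and 2.97 to 20.9% in the other 10 libraries. Iglv3 was highest in CAL_Dll4i replicate 2, at 28.4% (26.8 to 30.1). Iglv1 took 39.7 to 90.8% and was the first lambda V segment in 11 of 12 libraries.

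The V, J and constant segments of the Iglc2 cluster moved together across libraries, and so did Iglj1 and Iglc1. Shares within each class have a fixed total, so the relations below are not independent of each other. Over 12 libraries the share of Iglc2 gave r = 0.951 and rho = 0.965 with the share of Iglj2 among lambda J counts (permutation p = 1e-05 each, the smallest possible, adjusted 0.0001 and 0.000167), and r = 0.915 without the 2 farthest libraries, CAL replicate 2 and CAL_Dll4i replicate 3. With the summed share of Iglv2 and Iglv3 it gave r = 0.956 and rho = 0.937 (permutation p = 1e-05 and 3e-05, adjusted 0.0001 and 0.0003), and r = 0.901 without those libraries. Iglc1 gave r = 0.955 and rho = 0.944 with Iglj1 (permutation p = 1e-05 and 2e-05, adjusted 0.0001 and 0.00025) and r = 0.932 without its 2 farthest libraries. Iglc3 with Iglj3 gave r = 0.786 and rho = 0.503 (permutation p = 0.0055 and 0.0999, adjusted 0.0131 and 0.119), which became r = 0.373, so that relation rests on CAL replicate 4 and CAL_Dll4i replicate 4. Iglc2 and Iglc3 share 96.3% of their first 300 bases and Iglv1 and Iglv2 97.6% of their last 294, so reads could be split between them.

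J segment use also differed by library. The 4 heavy J segments had mean levels of 14.4 to 21.7 CPM, highest for Ighj4. Ighj4 took from 15.4% of heavy J counts in control replicate 1 to 44.9% in CAL replicate 3. Ighj1 took 41.2% in control replicate 2 and 44.8% in CAL replicate 4 against 14.9 to 25.3% in the other 10 libraries. Ighj2 was at 39.3% in control replicate 1, its highest, and 20.7% in CAL_Dll4i replicate 1, its lowest. Ighj3 ran from 12.1 to 31.5%, with both extremes in control.

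The kappa J segments, described after their values were seen, also varied between libraries. Igkj1 took 65.2% of kappa J counts in control replicate 1 and 14.2 to 36.4% in the others, and Igkj2 42.2% in CAL replicate 3 and 2.81% in control replicate 3. Igkj5 ran from 20.6 to 57.3% and Igkj4 from 4.20 to 21.3%, its highest in CAL replicate 1. Igkj3 took at most 3.41% and had 8 to 69 counts per library.

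V segment use differed widely from library to library. The first heavy V segment was Ighv1-76 in control replicate 1, Ighv1-55 in replicates 2 and 4 and Ighv1-52 in replicate 3. In CAL it was Ighv1-26, Ighv1-72, Ighv1-53 and Ighv1-39, and in CAL_Dll4i Ighv1-50, Ighv14-4, Ighv1-72 and Ighv1-26. Of the 9 segments, 3 came first in 2 libraries each: Ighv1-26, Ighv1-55 and Ighv1-72.

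Ighv1-76 (chromosome 12, 115847881 to 115848174) had the highest share of any heavy or kappa V segment in 1 library. It took 29.5% (29.3 to 29.8) of 108757 heavy V counts in control replicate 1, with 32129 counts, and at most 1.89% in any other library. Ighv1-26, the heavy V segment with the highest mean share (7.93%), added 20.8% there. In that library Igkj1, Ighj2 and Ighg2c were also at their highest shares.

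Other segments were high in 1 or a few libraries. Ighv1-53 took 16.6% (16.5 to 16.8) in CAL replicate 3 and 10.6% in CAL replicate 2, against 0.512 to 8.58% elsewhere. Ighv1-72 took 16.1% (15.9 to 16.3) in CAL replicate 2 and 11.1% (10.95 to 11.2) in CAL_Dll4i replicate 3, the same pair of libraries in which Iglv2 and Iglc2 were high, against 0.173 to 4.18% elsewhere. These are also the 2 libraries with the most muscle RNA (348 and 578 CPM, against 1.80 to 151 elsewhere), whose part in these values was not tested. Ighv1-55 took 14.8 and 11.3% in control replicates 2 and 4 and 0.661 to 6.27% elsewhere. These intervals are 95% Clopper-Pearson and cover counting error only, since reads without molecular identifiers are not independent molecules.

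Among the remaining leading heavy V segments, Ighv2-2 reached 10.9% in CAL replicate 4 and Ighv14-4 9.50% in CAL replicate 3 and 7.89% in CAL_Dll4i replicate 2. Ighv1-18 reached 7.45% in control replicate 4, Ighv1-64 6.91% and Ighv3-6 5.61% in control replicate 2. Ighv1-39 at 14.4% in CAL replicate 4, Ighv1-52 at 11.03% in control replicate 3 and Ighv1-50 at 10.9% in CAL_Dll4i replicate 1 are named because they came first in those libraries, a choice made after seeing their values. In all, 52 of 87 heavy V segments had a highest share at least 5 times their median share over 12 libraries, and 16 at least 10 times.

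For kappa, 10 different V segments came first in the 12 libraries. Igkv3-2 (chromosome 6, 70698468 to 70699067) took 18.02% (17.8 to 18.2) of kappa V counts in CAL replicate 3, 6.66 and 7.83% in CAL_Dll4i replicate 3 and control replicate 1 and at most 3.25% elsewhere. Igkv4-55 was at 13.2 and 14.9% in control replicates 2 and 4 and 12.4% in CAL replicate 4, against 0.730 to 6.26% in the rest. Igkv3-4 was high in 1 library of each group, at 8.74% in control replicate 2, 8.89% in CAL replicate 2 and 10.9% in CAL_Dll4i replicate 2, and at most 1.00% elsewhere. Igkv10-96 was first in control replicate 1, and Igkv1-110 reached 12.3% in control replicate 3, while Igkv1-135 stayed between 1.02 and 8.12%. Of 77 kappa V segments, 38 had a highest share at least 5 times their median and 20 at least 10 times.

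**Figure D4:**
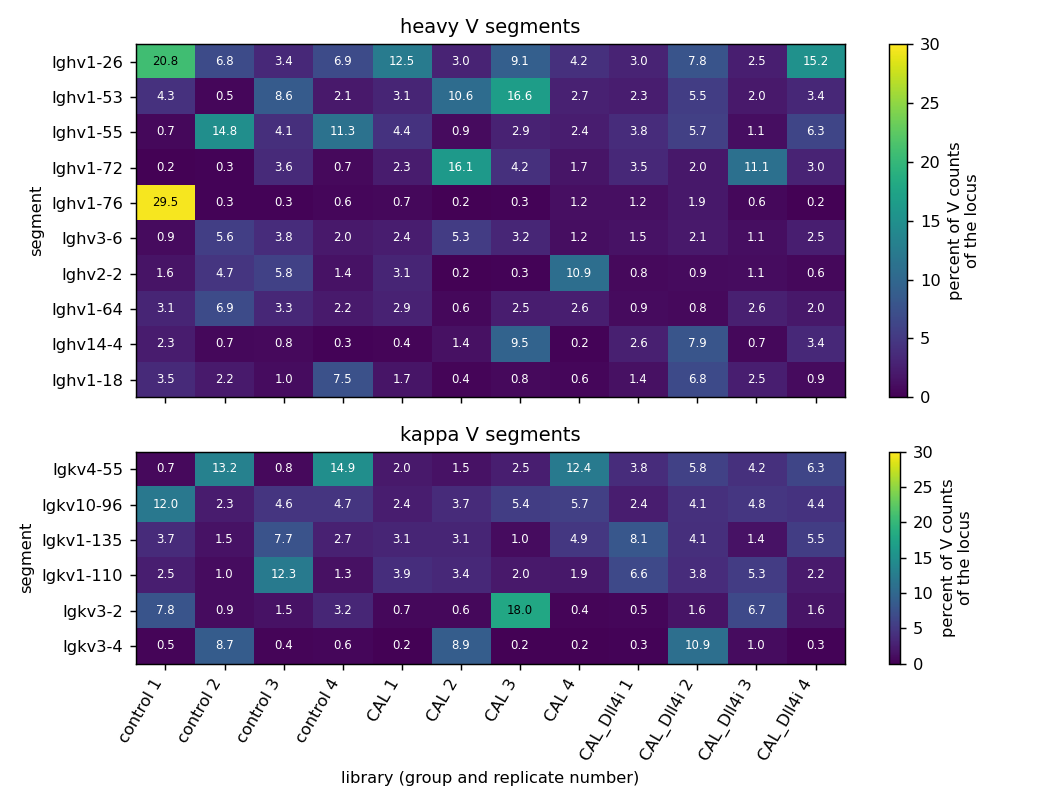
Share (percent, printed in each cell and coloured from 0 to 30) of all V counts of the locus for the 10 heavy and 6 kappa V segments with the highest mean share, by library (x axis). Ighv1-76 is at 29.5% in control replicate 1 and at most 1.89% elsewhere, and Igkv3-2 is at 18.02% in CAL replicate 3.

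CAL replicate 3 was high in several of these measures together: Ighm at 2035 TPM (542.6 to 721 in the other CAL libraries), Ighv1-53, Ighv14-4, Igkv3-2, Ighj4, Igkj2 and Iglv1, the last at 90.8% (90.2 to 91.4). Ms4a1 stood at 6.75 CPM there, the lowest of the CAL group, and Mzb1 at 8.18 CPM. Which chains were joined in the same cell cannot be read from bulk RNA.

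V use was summarised by its effective number, the inverse of the sum of squared shares, which counts how many equally used segments would give the same concentration. For the heavy chain it was 7.13, 20.8, 23.4 and 25.2 in control, 27.5, 17.9, 16.0 and 19.8 in CAL and 26.8, 26.5, 29.6 and 20.8 in CAL_Dll4i. Control replicate 1 was the lowest by far and CAL_Dll4i replicate 3 the highest. For kappa it was 20.1, 23.6, 19.7 and 18.1 in control, 33.5, 19.3, 17.3 and 22.4 in CAL and 25.6, 23.8, 29.5 and 31.4 in CAL_Dll4i. All 4 CAL_Dll4i kappa values lay above all 4 control values, the closest being 23.8 and 23.6, and overlapped CAL. With the exponential of Shannon entropy in its place they did not separate: control replicate 2 stood at 38.6, above CAL_Dll4i replicates 1 and 2 at 37.6 and 36.3. As summaries over the segments these values carry no test.

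Pairs of libraries within a group and between groups shared similar parts of their V use, described here without a test. The shared part of V use (the sum over segments of the smaller of a pair's shares) had a median of 49.1% over 18 pairs within groups and 47.9% over 48 pairs between groups for heavy V, and 50.6% and 52.3% for kappa V. It ran from 31.0 to 63.5% over all heavy pairs and from 40.4 to 62.4% over all kappa pairs. Of the V families, the 2 with the most segments varied least in fold between libraries: the 51 Ighv1 segments together took 61.6 to 82.5% of heavy V counts and the 24 Igkv4 segments 18.5 to 40.4% of kappa V counts. Smaller families varied more, Ighv2 (5 segments) from 0.820 to 11.8% and Igkv3 (7 segments) from 2.67 to 22.3%, and the single Ighv13 segment varied 66.1-fold, from 0.0144 to 0.951%.

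The effect of added ASC is read from CAL against control, and that of Dll4 inhibition on top of it from CAL_Dll4i against CAL. CAL_Dll4i against control shares its libraries with both, so values are given side by side. CAL libraries also enter both of the first comparisons. Of the 190 segments, 188 passed the filter on low counts. None was called in any comparison by edgeR (quasi-likelihood test, p adjusted by Benjamini-Hochberg over 18551 genes), where 0.00539%, 0% and 0% of all genes were called. DESeq2 called 8 of 170, 0 of 176 and 2 of 175 segments with an adjusted p, where it called 3.75%, 0.00512% and 0.325% of all such genes. Voom with sample weights called 0, 0 and 0 segments, against 0.388%, 0% and 0% of all genes.

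At an unadjusted p under 0.05, 21 segments stood out in CAL against control, 11 in CAL_Dll4i against CAL and 20 in CAL_Dll4i against control, where all genes gave 14.6%, 7.42% and 6.92%. In CAL against control the 21 of 188 are fewer than that share, and in CAL_Dll4i against control the 20 are more. Both directions turned when a single control library was left out. Without control replicate 4, CAL against control gave 35 of 188 segments and 2241 of 18600 genes. Without control replicate 1, CAL_Dll4i against control gave 7 of 189 segments and 1150 of 18635 genes. Groups did not overlap, with the first group higher, for 1, 0 and 5 segments (3.61%, 1.58% and 2.41% of all genes) and, with it lower, for 0, 0 and 0 (3.75%, 1.76% and 2.35%). The counts of segments whose groups did not overlap lie near that background or below it.

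The segments as a whole had higher estimates in both groups with ASC. In CAL against control, 131 were higher and 57 lower, with a median log2 fold change of 0.52 (all genes -0.01). In CAL_Dll4i against control, 132 were higher and 56 lower (median 0.48, all genes -0.00), and in CAL_Dll4i against CAL 96 and 92 (median 0.02, all genes 0.00). Adipocyte genes also differed between these groups: the summed CPM of 7 of them was 394 to 1183 in control, 1273 to 1990 in CAL and 791 to 1174 in CAL_Dll4i, with CAL above both other groups in every library. None of the 7 was called by edgeR in CAL against control (6 at an unadjusted p under 0.05), DESeq2 called 2 and voom 0, and their part in the immunoglobulin values was not tested. The segments share their libraries and cells, so these counts are not independent of each other. The spread between replicates was wide: the median biological coefficient of variation was 0.858 for the segments, 0.605 for constant regions, 0.543 for J, 0.913 for heavy V and 0.871 for kappa V, against 0.161 for all genes.

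**Figure D5:**
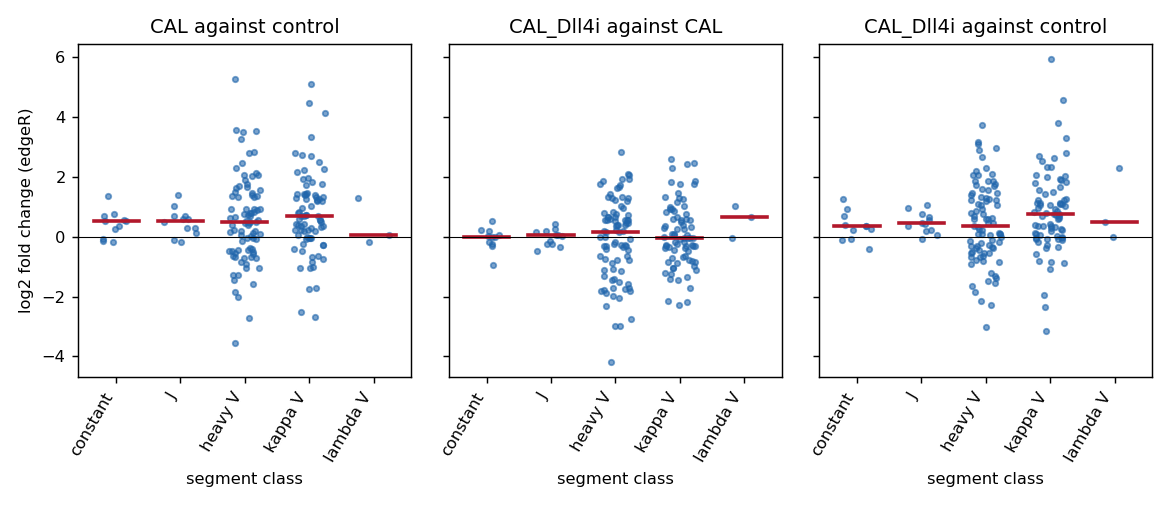
Log2 fold changes (y axis, edgeR) of the 188 segments tested in the 3 comparisons, by class (x axis); each point is a segment and red lines are medians. The constant and J segments lie between -0.96 and 1.40, heavy and kappa V segments spread from -4.19 to 5.93, and no segment was called.

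Single segments with the smallest p rested on a few libraries. In CAL against control they were Ighv1-47, at 0.372, 0.369, 1.08 and 1.32 CPM in control and 9.98, 99.4, 0.281 and 13.9 in CAL, and Ighv1-85, at 1.03, 5.46, 3.38 and 6.07 in control and 65.1, 55.6, 1.11 and 64.7 in CAL. CAL replicate 3 lay within or below the control range for both. Their log2 fold changes were 5.28 ± 1.45 and 3.55 ± 1.06 (± SE), with edgeR adjusted p = 0.188 and 0.207. By DESeq2 adjusted p was 0.00120 and 0.0129, and over all settings it ran from 0.00120 to 0.484 and from 0.0129 to 0.523. Igkv4-53 stood at 7.99 to 18.7 CPM in control and at 39.0, 419, 42.2 and 16.0 in CAL (3.33 ± 1.04, edgeR adjusted p = 0.213, range over settings 0.0186 to 0.552). DESeq2 also called Ighv1-72, Ighv1-84, Igkv8-21, Ighv1-62-3 and Ighv5-17. Ighv1-72 and Ighv1-62-3 share 99.3% of the 294 bases compared, so reads could be split between them and their calls may not be separate. Ighv1-84 was the 1 segment with CAL entirely above control, at 1.08 to 13.3 and 17.9 to 128 CPM.

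Lower in CAL by estimate, and not called, were Igkv6-25 (-2.52 ± 0.98, edgeR adjusted p = 0.288), Ighv1-56 (-2.71 ± 1.20, 0.335) and Ighv1-76 (-3.54 ± 1.56, 0.335). The Ighv1-76 estimate came from 1 library: control stood at 543, 3.95, 2.70 and 16.2 CPM and CAL at 16.3, 6.54, 7.07 and 18.7, and without control replicate 1 the estimate was 0.67. The constant region with the smallest p was Igha (0.52 ± 0.33, edgeR adjusted p = 0.503), at 358 to 667 CPM in control and 425 to 1029 in CAL. Without the 3 libraries with muscle RNA, 2 of them in CAL, its estimate was -0.00945 (edgeR adjusted p = 0.997, range over settings 0.407 to 0.997).

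In CAL_Dll4i, Igkv12-44 (chromosome 6, 69814631 to 69815100) had the smallest p of the segments against both other groups. It stood at 13.4, 10.3, 6.80 and 11.4 CPM in control, 17.1, 14.0, 4.93 and 12.8 in CAL and 84.7, 13.5, 59.8 and 83.0 in CAL_Dll4i. CAL_Dll4i replicate 2 was like the other groups and replicates 1, 3 and 4 were several times higher. Its log2 fold change was 2.53 ± 0.55 against control (edgeR adjusted p = 0.531, DESeq2 0.00520, range over settings 0.00520 to 0.866) and 2.30 ± 0.55 against CAL (edgeR adjusted p = 0.659, range 0.0720 to 0.999).

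Against CAL the next were Ighv11-1 (1.91 ± 0.62) and Ighv11-2 (2.07 ± 0.78), the V family that peritoneal B-1 cells of mice are known to use, both with edgeR adjusted p = 0.659. They share 98.6% of the 294 bases compared, so reads could be split between them. Both were highest in CAL_Dll4i replicate 3, Ighv11-1 at 24.2 CPM, against 1.98 to 8.98 in the other libraries. Ighv11-2 stood at 10.02 to 24.3 CPM in CAL and 42.3, 11.5, 162 and 28.3 in CAL_Dll4i, and at 13.9 to 52.0 in control. Lower by estimate were Ighv1-47 (-4.19 ± 1.36) and Ighv1-71 (-1.59 ± 0.63), both with edgeR adjusted p = 0.659, and Ighv1-85 (-2.30 ± 1.00, 0.669). Among constant regions Ighg1 had the smallest p (-0.96 ± 1.09, edgeR adjusted p = 0.873).

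Against control, Igkv5-43 (2.04 ± 0.59) and Ighv2-5 (3.72 ± 1.12) followed, both with edgeR adjusted p = 0.706, and DESeq2 called Ighv2-5 (adjusted p = 0.0443, range over settings 0.0443 to 0.866). Ighv2-5 stood at 0.658 to 2.93 CPM in control and at 5.69, 1.65, 12.6 and 65.7 in CAL_Dll4i. Lower by estimate were Igkv8-19 (-3.16 ± 1.15), Ighv1-62-2 (-1.83 ± 0.75) and Ighv1-71 (-1.38 ± 0.63), each with edgeR adjusted p = 0.714. Ighv1-62-2 and Ighv1-71 are equal in all 294 bases compared, so reads could be split between them and their estimates are not separate results. The constant region with the smallest p was Iglc2 (1.27 ± 0.66, edgeR adjusted p = 0.716), at 18.3 to 55.3 CPM in control and 47.6, 33.6, 179 and 37.9 in CAL_Dll4i. The 5 segments with CAL_Dll4i entirely above control were Igkv12-44, Igkv4-74, Ighv14-3, Ighv8-5 and Ighv3-1, with edgeR adjusted p = 0.531 to 0.716.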

How the data were processed

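RNA from 12 fat graft libraries was extracted with Trizol and prepared with a SureSelectXT RNA Direct kit, per the labels' protocols. Which V, J or constant segments the library preparation favours was not analysed here. Reads were processed with HISAT2 and StringTie against mm10 (names per the submitters' processing notes, without versions). One table was deposited; it holds, per the file headers, estimated counts, FPKM and TPM for 19547 genes. The estimated counts, deposited by the authors as whole numbers and not scaled between libraries, were used for tests and for shares within the V and J classes. The TPM values, scaled by the authors for length, were used to compare constant regions. The deposited FPKM values were used only to derive the lengths behind them. Rearranged junctions are not in the genome, so reads across them may be lost.

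Counts were fitted in R 4.3.3 with edgeR 4.0.16 (TMM, filterByExpr defaults, robust quasi-likelihood test, 1 coefficient per group, all 12 libraries); 18551 genes were tested, among them 188 of the 190 segments, and calls were made at a Benjamini-Hochberg adjusted p under 0.05. Rounding changed no count. The code was tested on simulated counts. Shares were compared by exact permutation tests and correlations by 100000 permutations in Python 3.11.15 with scipy 1.17.1. Single-library shares carry 95% Clopper-Pearson intervals. Alternatives were other scalings and filters, DESeq2 1.42.0, voom with sample weights (limma 3.58.1), the groups compared alone, the replicate number as a block, and each library left out. Leaving out 3 libraries with muscle RNA was chosen after seeing the data. All 190 segments were found by gene ID in the RefSeq table (GRCm38.p6), and 185 had a GENCODE vM21 transcript. Of 2280 segment counts, 81 were 10 or fewer, and 100 segments had 100 or more in every library.

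Named segments are all constant regions, the 10 heavy, 6 kappa and all lambda V segments with the highest mean share of their locus, the 4 J segments with the highest mean CPM, every segment called by edgeR and up to 3 per comparison and direction with the smallest p; the 5 genes most like the summed constant regions and B lineage genes were also named, of which not all are reported here. The members and lists were chosen with earlier results of these data known.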

Additional observations from a re-analysis of the deposited data

Results flagged for a closer look

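In 111 sets of 4 libraries (1 measure in 1 group each), 19 held a library that stood far from the other 3 by Dixon's criterion. For normal values, chance marks about 1 in 20 such sets. That rate cannot be set against the 19. The heavy and kappa V segments were chosen by mean share over these same libraries, which favours segments high in 1 library. The values also need not be normal, and sets that share a library are not independent.

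Among isotypes, these were the IgM share of 35.8% in CAL_Dll4i replicate 2, the IgA share of 41.8% in control replicate 3, Ighg1 at 598 TPM and Ighg3 at 231 TPM in control replicate 4, and Ighm at 2035 TPM in CAL replicate 3. For lambda, Iglc2 stood at 1293 TPM and Iglv2 at 50.2% of lambda V counts in CAL_Dll4i replicate 3, and Iglv3 at 16.4% in control replicate 4 and 28.4% in CAL_Dll4i replicate 2.

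Among heavy V segments, Ighv1-76 stood apart at 29.5% in control replicate 1, Ighv14-4 at 9.50% in CAL replicate 3, and Ighv1-72 at 3.61% in control replicate 3 and 11.1% in CAL_Dll4i replicate 3. Among kappa V segments, Igkv4-55 stood apart at 12.4% in CAL replicate 4, Igkv1-110 at 12.3% in control replicate 3 and Igkv3-2 at 18.02% in CAL replicate 3. Igkv3-4 did so in replicate 2 of every group, at 8.74% in control, 8.89% in CAL and 10.9% in CAL_Dll4i; the labels do not tie these libraries together. No cause was tested for any of these values.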

How the results depend on the processing

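Each setting of edgeR (other scalings, filters, the groups compared alone) and voom called 0 segments in the 3 comparisons, and leaving out each library gave 0 to 0; DESeq2 called 8 in CAL against control (3.75% of all genes) and 2 in CAL_Dll4i against control (0.325%). With the replicate block 0 were called. The labels do not say whether same-numbered libraries belong together. Likeness between them was weak (2 of 12 correlations above 0.1, and 0 libraries matched their own number best), which does not settle whether they were paired. In the block fit, 7, 4 and 9 of 188 segments had an unadjusted p under 0.05, where 13.7%, 6.81% and 6% of all genes did. Share differences, in percentage points, changed sign easily. Leaving out each library, CAL minus control ran from -5.59 to 4.93 for IgM, -9.03 to 0.707 for IgG, -3.76 to 6.44 for IgA and -2.53 to 2.39 for lambda, and CAL_Dll4i minus CAL from -2.79 to 6.09 for IgA. IgM in CAL against control was -0.0324 as log2 odds. Without the 3 libraries with muscle RNA, IgA in CAL against control was -4.53, IgM in CAL_Dll4i against CAL -0.858, and the log2 fold change of Igha in CAL against control -0.00945; that of Ighv1-76 ran from -3.95 to 0.67, the latter without control replicate 1. The exponential of Shannon entropy in place of the inverse Simpson number gave median effective numbers of 35.6, 33.6 and 40.5 (heavy V) and 31.8, 33.6 and 39.9 (kappa V) in control, CAL and CAL_Dll4i. The cause of these shifts was not tested. Segments with few counts, such as Igkj3, limit what can be seen.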

Other observations

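Outside the rule, 13 immunoglobulin segment genes annotated as pseudogenes held 0.616 to 2.90% as many counts as the segments, and the values that follow were chosen after they were seen. Igkv14-126 stood at 15.2 to 36.3 CPM in 11 libraries and at 167 CPM in CAL_Dll4i replicate 3, where Ighv11-2 stood at 162 CPM. In mice, Ighv11-2 with Igkv14-126 is known from B-1 cell antibodies to phosphatidylcholine. Over the 12 libraries the 2 segments gave Pearson r = 0.865 and Spearman rho = 0.846 on the log2 scale (permutation p = 0.0017 and 0.00104, a pair picked after its values were seen), and r = 0.888 without CAL_Dll4i replicate 3 and control replicate 2. Ighv7-3 stood at 183, 116 and 64.3 CPM in CAL_Dll4i replicates 1, 3 and 4 and at no more than 26.1 CPM in the other 9 libraries.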
